A study of Mus musculus with 55 samples.

Results

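The livers of 10 WT mice given the Gls2 hairpin (sh-Gls2), a short RNA designed to silence this gene, were compared with those of 10 WT mice that received a scrambled hairpin (control), across every expressed gene. These 20 libraries, chosen by the group named in their labels, are 20 of the 55 in the series. WT is the hybrid B6EiC3SnF1/J. Every mouse in both groups was male, received its hairpin in an adeno-associated virus by vein at 4 months, ate a diet of 40% protein from week 2 after injection, and was 5 months old when the liver was taken at week 5. The animals were therefore compared under a high-protein load in both groups. The other libraries used below were 9 from WT mice with a hairpin against Glud1 (sh-Glud1), and 10 sh-Gls2 and 8 control libraries from OTC mice (B6EiC3Sn a/A-Otcspf-ash/J), which carry the spf-ash variant of the X-linked urea cycle gene Otc. The promoter and serotype of the virus, its dose and the sequence of the hairpin are not given in the sources used here. A second Gls2 hairpin of another sequence was not analysed here, so effects of a lower Gls2 level and other effects of this vector cannot be told apart.

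Gls2 encodes the liver-type glutaminase, a mitochondrial enzyme that splits glutamine into glutamate and ammonia. It is made mainly by hepatocytes around the portal vein, where its ammonia feeds carbamoyl phosphate synthetase and the urea cycle. Hepatocytes around the central vein do the reverse, and make glutamine from ammonia that escaped. A short hairpin RNA is cut in the cell into a small RNA that guides the silencing machinery to matching transcripts.

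Liver RNA was sequenced from poly(A)-selected libraries, and the unit is a count of reads per gene symbol. Levels are given as counts per 1000000 counts of the library (CPM), after TMM normalisation, and a group's level as its lowest, median and highest library. Total counts lay between 14489866 and 22001267 in sh-Gls2 and between 16023185 and 22781052 in control. A gene was called at an adjusted p below 0.05 in edgeR's quasi-likelihood test over all 13311 tested genes, and a fold change is on the log2 scale, sh-Gls2 minus control, with its standard error (SE). Control mice 7 and 13 stood apart on the second principal component of the 20 libraries, at −52.3 and 33.2, and calls that rest on them are named below. All 6 hepatocyte markers were detected in every group, with sums of 70710 to 109800 CPM in sh-Gls2 and 63880 to 106500 CPM in control.

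Gls2 was at 159, 198 and 255 CPM in sh-Gls2 livers and at 339, 438 and 578 CPM in control livers. Every sh-Gls2 library was below every control library. The log2 fold change was −1.11 ± 0.10 (edgeR adjusted p = 3.51e-13), which left 46.3% of the control level. Gls2 lies on GRCm38 chromosome 10, from 128194457 to 128210004 on the plus strand. With sh-Glud1, Gls2 was at 343, 433 and 579 CPM, with a median close to that of control.

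Genes around Gls2 in metabolism were counted next. Of 25 tested genes of glutamine and ammonia handling, 3 were called higher (12%) and 4 lower (16%). These shares are near the background of 17.6% of all tested genes higher and 17.2% lower. The list's median log2 fold change was −0.06, and that of all tested genes −0.01. Glul, which encodes the glutamine synthetase of pericentral hepatocytes, was at 265, 479.7 and 564 CPM in sh-Gls2 and 465, 681 and 907 CPM in control. The ranges overlapped, and the fold change was −0.62 ± 0.22 (edgeR adjusted p = 0.0248). Rhbg, an ammonia transporter of the same cells, was at 9.59, 14.3 and 16.5 CPM in sh-Gls2 against 4.20, 5.26 and 10.7 CPM in control. The highest control library reached into the sh-Gls2 range, and the fold change was 1.18 ± 0.16 (edgeR adjusted p = 8.9e-08). The amino acid transporter gene Slc38a4 fell by 0.34 ± 0.10 and the aspartate-glutamate carrier gene Slc25a13 fell by 0.26 ± 0.08. Ctps, a CTP synthase that consumes glutamine, was higher by 0.56 ± 0.18, a call lost without sh-Gls2 mouse 45 (0.39, edgeR adjusted p = 0.0632). Neither Glud1 (glutamate dehydrogenase, −0.06 ± 0.12) nor Cps1 (carbamoyl phosphate synthetase, −0.10 ± 0.12) was called, with edgeR adjusted p of 0.709 and 0.549. Of 9 urea cycle genes, Slc25a13 alone was called, and lower.

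Glutaminase and glutamine synthetase sit at opposite ends of the liver lobule, so genes of the 2 zones were also counted. Of 22 pericentral genes 4 were higher (18.2%) and 1, Glul, was lower (4.55%), near or below the 17.6% and 17.2% of all tested genes (median 0.07). The higher ones were Rhbg, the carboxylate transporter gene Slc13a3 (0.94 ± 0.18), the chemotactic hepatokine gene Lect2 (0.74 ± 0.16) and Ahr, the aryl hydrocarbon receptor (0.47 ± 0.12). Of 21 periportal genes 2 were higher (9.52%) and 3 lower (14.3%), also near or below those shares, with Gls2 among the lower (median −0.10). The higher ones were Cdh1, which encodes E-cadherin (1.19 ± 0.33, edgeR adjusted p = 0.00339), and the dehydrogenase gene Aldh1b1 (0.37 ± 0.10). Cdh1 was at 6.97, 75.7 and 125 CPM in sh-Gls2 and 5.16, 33.6 and 58.4 CPM in control. Its call was lost with limma on log2(TPM + 0.1) (adjusted p = 0.0524).

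The count table also has a row named eGFP, a jellyfish-derived fluorescent protein that is no mouse gene and is not mentioned in the labels. It was at 5.80, 11.9 and 21.8 CPM in sh-Gls2 and 18.5, 34.2 and 73.1 CPM in control. In 8 of the 10 sh-Gls2 libraries it was below the lowest control library. The log2 fold change was −1.74 ± 0.30 (edgeR adjusted p = 8.15e-06), and −1.44 ± 0.31 against sh-Glud1 (edgeR adjusted p = 0.000235). What this row measures, and whether the groups took up different amounts of vector, was not tested.

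**Figure D1:**
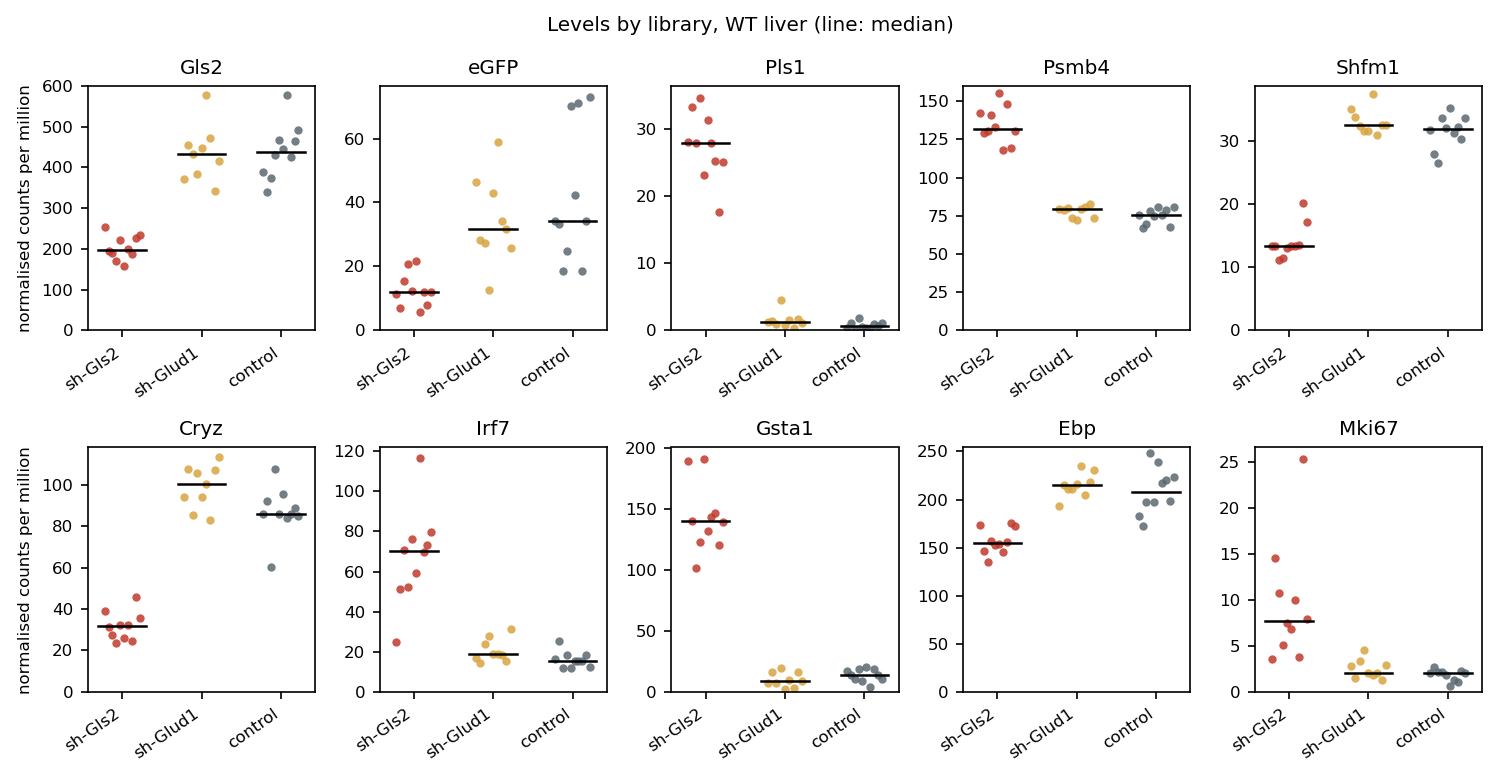
CPM (vertical axis, from 0) of 10 features in each WT library with sh-Gls2 (10), sh-Glud1 (9) and control (10), with the group median as a line. Gls2, Shfm1 and Cryz sat below every control library in sh-Gls2, and Pls1, Psmb4, Gsta1 and Mki67 above every one. None of the 10 was called in sh-Glud1 minus control.

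Across the genome the sh-Gls2 livers differed widely but mostly by little. Of 13311 tested genes, 2344 were called higher and 2294 lower, together 34.8%. Of these 4638 calls, 3321 were changed by less than 1.5-fold. At 2-fold or more the balance was uneven, with 423 genes higher and 98 lower, and at 4-fold or more with 116 higher and 13 lower. In 384 genes (2.88% of those tested) every sh-Gls2 library was above every control library, and in 250 (1.88%) every one was below. The first principal component, with 29.3% of the variance, had all 10 sh-Gls2 libraries on its positive side and all 10 control libraries on its negative side. Without control mice 7 and 13, 4704 genes were called, 2448 higher and 2256 lower, of which 4238 were called in the same direction with them.

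**Figure D2:**
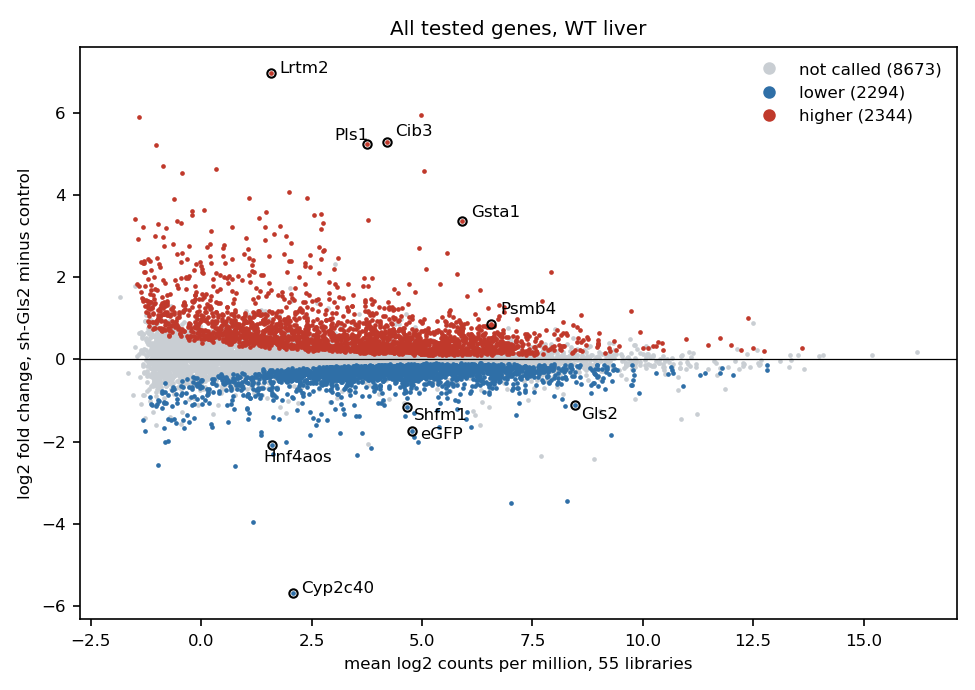
Log2 fold change of sh-Gls2 minus control (vertical axis) against mean log2 CPM (horizontal axis) for the 13311 tested genes, with the 2344 genes called higher in red, the 2294 called lower in blue and the rest in grey. Genes with large changes are mostly above 0, and the circled genes are described in the text.

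The largest increases among genes with a mean log2 CPM of at least 1 included several with a median below 1 CPM in control liver. Pls1 encodes plastin 1, which bundles actin in microvilli. It was at 17.7, 27.98 and 34.8 CPM in sh-Gls2 and 0.125, 0.596 and 1.79 CPM in control, a log2 fold change of 5.23 ± 0.41 (edgeR adjusted p = 2.64e-15). The lowest sh-Gls2 library was far above the highest control library. Lrtm2, a leucine-rich repeat membrane protein gene, was at 4.10, 6.60 and 14.6 CPM in sh-Gls2 and at no more than 0.243 CPM in any control library (6.96 ± 0.54, edgeR adjusted p = 2.26e-15). Cib3, a calcium-binding protein gene, was at 10.1, 39.1 and 49.6 CPM in sh-Gls2 and 0, 0.872 and 2.70 CPM in control (5.29 ± 0.44). The sh-Gls2 library of mouse 45 was the lowest of its group for Cib3, yet above all controls.

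Other genes among the 15 highest were Slpi, a secreted inhibitor of leukocyte proteases (3.51 ± 0.33), Elf3, an ETS transcription factor of epithelia (3.43 ± 0.36), and Tff3, a trefoil peptide of mucous epithelia (3.92 ± 0.55). Mmp12, the macrophage metalloelastase, was higher by 3.25 ± 0.47 and Abcc12, an ABC transporter gene, by 3.93 ± 0.40. Mtmr11, of the myotubularin family, was higher by 3.54 ± 0.25 and the interferon-inducible Ifi27l2b by 3.39 ± 0.27. In 6 of these 7 genes the groups did not overlap, and in Tff3 mouse 45 lay within the control range. Ttc39a rose by 3.59 ± 0.26 and Ttc39aos1, the antisense gene beside it, by 4.06 ± 0.28. The annotated bounds of these neighbours do not overlap. Mup11, of the major urinary protein family whose near-identical members share reads, was at 0, 21.4 and 653 CPM in sh-Gls2, and mouse 13 was the one control library with reads, at 22.3 CPM. Its call was lost with the DESeq2 Wald test (adjusted p = 0.289).

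The smallest p-values among increases belonged to other genes. Uap1l1, related to the enzyme that makes UDP-N-acetylglucosamine, was at 10.02, 12.8 and 15.9 CPM in sh-Gls2 and 1.40, 1.93 and 3.14 CPM in control (2.64 ± 0.14, edgeR adjusted p = 1.1e-21). Pfn2, a profilin that controls actin assembly, was at 12.5, 16.7 and 23.5 CPM in sh-Gls2 and 1.01, 1.86 and 2.88 CPM in control (3.17 ± 0.17, edgeR adjusted p = 1.84e-21). Neither gene's ranges overlapped. The other 3 of the 5 increases with the smallest p were the proteasome genes Psmc6, Psmb7 and Psmb4.

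The 5 decreases with the smallest p were Slc20a2, Cryz, the proteasome gene Shfm1, Gnai3 and Lage3. Slc20a2, a phosphate importer, was at 25.95, 32.8 and 44.1 CPM in sh-Gls2 and 77.2, 84.7 and 90.5 CPM in control (−1.27 ± 0.06, edgeR adjusted p = 1.1e-21). Cryz, a quinone reductase known as zeta-crystallin, was at 23.4, 31.96 and 46.1 CPM in sh-Gls2 and 60.2, 86.04 and 107 CPM in control (−1.45 ± 0.09, edgeR adjusted p = 2.03e-19). Gnai3, an inhibitory G protein alpha subunit, was at 56.3, 61.4 and 69.99 CPM in sh-Gls2 and 106, 112 and 119.5 CPM in control (−0.85 ± 0.05). In all 3 genes each sh-Gls2 library lay below each control library, and the sh-Glud1 minus control values were 0.10 ± 0.07, 0.18 ± 0.09 and −0.02 ± 0.05. Lage3, which encodes a subunit of the KEOPS complex that modifies transfer RNA, fell by 1.32 ± 0.10, and Bckdk, the kinase that switches off branched-chain amino acid breakdown, by 0.85 ± 0.08, also without overlap. Hnf4aos, an antisense transcript of the Hnf4a locus, was at 0.519, 0.908 and 1.38 CPM in sh-Gls2 and 2.57, 3.85 and 5.33 CPM in control (−2.09 ± 0.19, edgeR adjusted p = 5.05e-13). Hnf4a, the hepatocyte factor gene on the other strand, was at 0.12 ± 0.08 (edgeR adjusted p = 0.254), and its annotated bounds overlap those of Hnf4aos. The strand setting of the counting is not given in the sources used here, so reads of this pair may have been shared.

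The lowest fold changes came from variable genes and in part from 1 control mouse. Cyp2c40, a cytochrome P450 gene, was at 0, 0.333 and 0.995 CPM in sh-Gls2 and 0, 0.338 and 182 CPM in control, where mouse 13 held the highest value and the next was 0.849 CPM. Its log2 fold change of −5.69 ± 1.16 became −0.03 without mouse 13 (edgeR adjusted p = 0.984), and 0.18 without mice 7 and 13. Slc22a26, an anion transporter gene, likewise was at −3.96 ± 0.98, and at −0.92 without mouse 13 (edgeR adjusted p = 0.421). Mup9 was at 19.9, 57.6 and 137 CPM in sh-Gls2 and 46.4, 756 and 1465 CPM in control. Mup17 was at 0, 13.98 and 114 CPM in sh-Gls2 and 13.1, 217 and 1355 CPM in control. Both were called lower with overlapping ranges (−3.45 ± 1.10 and −3.50 ± 0.98), and as members of the urinary protein family their single values are uncertain. Foxq1, a forkhead transcription factor gene, was at 2.23, 3.66 and 13.2 CPM in sh-Gls2 and 3.51, 14.6 and 53.3 CPM in control (−1.78 ± 0.41, edgeR adjusted p = 0.00057).

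Every core gene of the proteasome rose in sh-Gls2 livers. This complex degrades proteins tagged with ubiquitin: a core particle of alpha and beta rings holds the proteases, and a regulatory particle, made of a base with ATPases and a lid that removes ubiquitin, unfolds and feeds the substrates. All 14 genes of the constitutive core particle were called higher, and in all 14 every sh-Gls2 library was above every control library, against 2.88% of tested genes. Their log2 fold changes lay between 0.29 and 0.85, with a median of 0.66. Psmb4 was at 118, 132 and 156 CPM in sh-Gls2 and 66.8, 75.7 and 80.9 CPM in control (0.85 ± 0.05, edgeR adjusted p = 2e-20). Psmb5, which carries the chymotrypsin-like site, was at 53.6, 71.8 and 96.5 CPM in sh-Gls2 and 40.01, 45.8 and 53.1 CPM in control (0.69 ± 0.08). Psma6, an alpha subunit, had the smallest change, at 93.7, 100.4 and 108 CPM in sh-Gls2 and 74.8, 82.8 and 88.9 CPM in control (0.29 ± 0.04, edgeR adjusted p = 3.13e-09).

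In the base, 9 of 10 genes were higher (90%, against 17.6% of all tested genes), again with no overlap between groups. The median was 0.59. The ATPase gene Psmc6 was at 112, 134 and 164 CPM in sh-Gls2 and 73.2, 74.8 and 83.1 CPM in control (0.81 ± 0.04, edgeR adjusted p = 1.84e-21). The exception was Adrm1, a ubiquitin receptor, at 61.8, 68.3 and 78.8 CPM in sh-Gls2 and 61.7, 65.2 and 77.4 CPM in control (0.06 ± 0.08, edgeR adjusted p = 0.569). In the lid, 7 of 9 genes were higher (77.8%) and 2 were lower (22.2%, against 17.2% of all tested genes), all without overlap. Psmd14, the deubiquitinase of the lid, was at 74.4, 94.9 and 117 CPM in sh-Gls2 and 49.7, 52.9 and 62.2 CPM in control (0.85 ± 0.06). The 2 lid genes that went the other way were Shfm1 and Psmd3. Shfm1, which encodes the small subunit DSS1, was at 11.2, 13.4 and 20.2 CPM in sh-Gls2 and 26.5, 31.9 and 35.2 CPM in control (−1.17 ± 0.07, edgeR adjusted p = 5.44e-19). Psmd3, a scaffold subunit, was at 50.6, 56.5 and 66.4 CPM in sh-Gls2 and 67.5, 71.8 and 82.5 CPM in control (−0.36 ± 0.05, edgeR adjusted p = 1.07e-08).

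**Figure D3:**
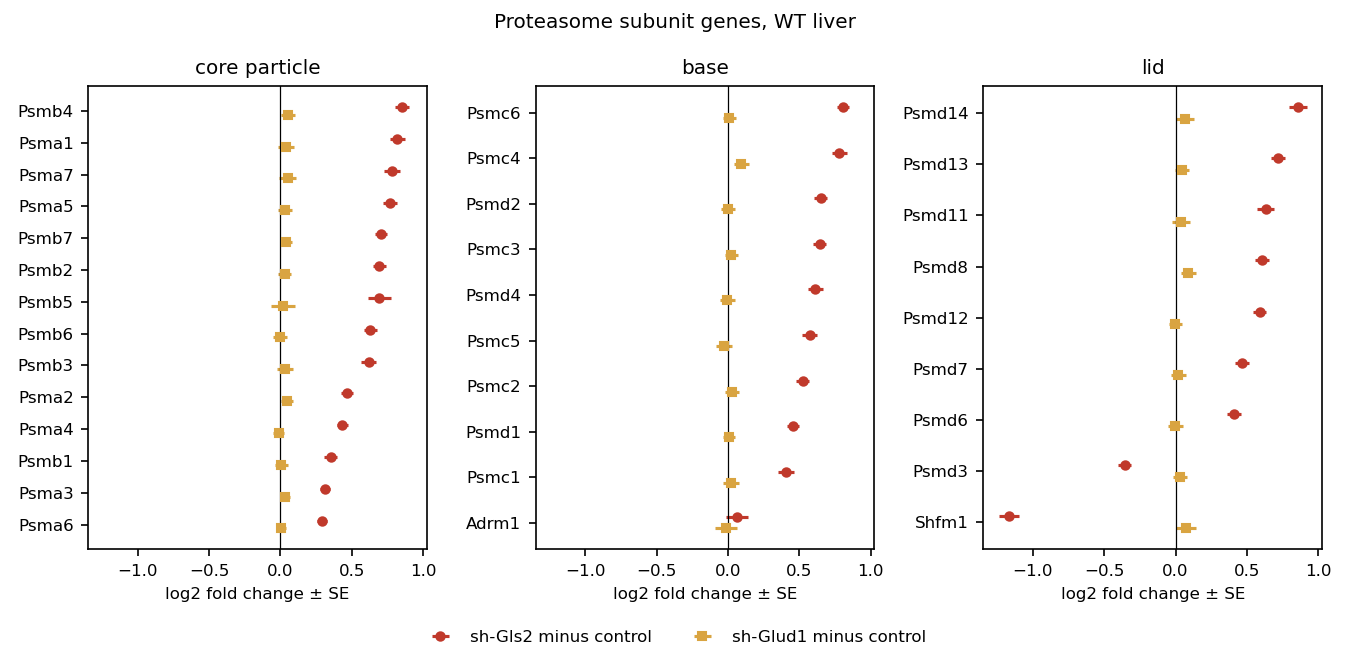
Log2 fold change with its SE (horizontal axis) of each proteasome subunit gene, in panels for core particle, base and lid, for sh-Gls2 minus control (red circles) and sh-Glud1 minus control (yellow squares). In sh-Gls2, 30 of 33 genes lie right of 0 and called, Shfm1 at −1.17 and Psmd3 at −0.36 lie left of it, and the sh-Glud1 values lie between −0.03 and 0.09.

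Genes that help build or supply the proteasome moved less evenly. Of 14 assembly factors and regulators, 4 were higher (28.6%) and 1 lower (7.14%), against 17.6% and 17.2% of all tested genes (median close to 0). Pomp, the maturation factor of the core, was at 93.8, 116 and 129 CPM in sh-Gls2 and 70.9, 75.4 and 87.2 CPM in control (0.59 ± 0.06), and Psme4, the alternative cap PA200, rose by 0.49 ± 0.05. The inhibitor gene Psmf1 and the assembly chaperone gene Psmd5 rose by 0.43 ± 0.07 and 0.35 ± 0.07. Nfe2l1, whose product activates proteasome genes when proteasomes are inhibited, was at 93.2, 106 and 133 CPM in sh-Gls2 and 101, 118 and 135 CPM in control and was not called (edgeR adjusted p = 0.259). Ddi2, the protease that releases that factor, was the lower one (−0.19 ± 0.08, edgeR adjusted p = 0.0448), a call that 12 of the 20 single libraries undid when left out. Of 16 genes around VCP, the ATPase that extracts ubiquitinated proteins, 10 were higher (62.5%, against 17.6%) and none lower (median 0.40). Vcp was at 480.1, 583 and 656 CPM in sh-Gls2 and 377, 399 and 428 CPM in control (0.55 ± 0.05, edgeR adjusted p = 4.17e-13), and its cofactor gene Nploc4 rose by 0.56 ± 0.05. Sqstm1, which encodes the autophagy receptor p62, was at 450.0, 528 and 654 CPM in sh-Gls2 and 292, 315 and 347 CPM in control (0.78 ± 0.07), without overlap. These 5 proteasome and VCP lists were drawn up after their values had been seen.

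Interferon-stimulated genes are switched on when cells sense viral nucleic acid or interferon, through a promoter motif called ISRE. Of 44 such genes 41 were higher (93.2%, against 17.6% of all tested genes) and none lower, with a median log2 fold change of 1.02. In 7 of them every sh-Gls2 library was above every control library, against 2.88% of all tested genes. Irf7, the transcription factor that amplifies the response, was at 24.7, 70.3 and 117 CPM in sh-Gls2 and 11.8, 15.6 and 25.2 CPM in control. In 9 of 10 sh-Gls2 libraries it was above the highest control, and mouse 45 fell just below it (2.06 ± 0.20, edgeR adjusted p = 2.39e-12). Samd9l, an antiviral factor gene, was at 23.8, 35.7 and 52.5 CPM in sh-Gls2 and 12.5, 15.1 and 18.2 CPM in control (1.34 ± 0.16), and the secreted Lgals3bp rose by 0.99 ± 0.11. The 3 genes not called were Stat2 (−0.14 ± 0.12), Irf9 (0.23 ± 0.10) and Dtx3l (0.04 ± 0.09). Among 13 sensors of nucleic acid and their adaptors 6 were higher (46.2%, against 17.6% of all tested genes). They included the RNA sensor genes Ifih1 (0.86 ± 0.10), Ddx58 (0.69 ± 0.10) and Tlr7 (1.15 ± 0.20). Ifih1 and Ddx58 are also among the interferon-stimulated genes counted above. The adaptor gene Mavs was the 1 lower gene (−0.23 ± 0.07), a share of 7.69% against 17.2%.

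The promoters of several of these genes are shown because the motif they share is the textbook site of the response. Capitals mark matches on either strand to an ISRE core, GAAA followed by any 2 bases and GAAA. Each line is a 60 base window of GRCm38 from RefSeq, on the strand of the gene, 5′ to 3′.
Isg15 (chr4:156200862-156200921, minus strand): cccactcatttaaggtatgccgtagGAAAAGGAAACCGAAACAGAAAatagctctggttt
Ifit1 (chr19:34640760-34640819, plus strand): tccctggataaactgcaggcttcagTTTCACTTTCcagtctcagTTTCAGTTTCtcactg
Oas1a (chr5:120907511-120907570, minus strand): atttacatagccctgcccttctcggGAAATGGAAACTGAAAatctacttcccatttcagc
Gbp2 (chr3:142620579-142620638, plus strand): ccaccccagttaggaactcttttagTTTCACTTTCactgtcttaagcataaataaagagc
Of 31 interferon-stimulated genes with a promoter in the table, 19 held the motif within 250 bases before to 50 bases after the start, against 3.9% of the 10080 tested genes with one. Isg15, a ubiquitin-like modifier, was at 7.72, 14.3 and 33.6 CPM in sh-Gls2 and 3.92, 6.09 and 10.5 CPM in control (1.38 ± 0.24). Ifit1 and Oas1a, which bind and sense viral RNA, rose by 1.24 ± 0.23 and 2.11 ± 0.30, and the GTPase gene Gbp2 by 0.91 ± 0.23. These 4 genes were picked for display after their values had been seen, and overlaps with other motifs were not searched.

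Presentation of peptides on MHC class I moved in the same direction. Of 15 genes 14 were higher (93.3%) and 1, Erap1, was lower (6.67%), with a median of 0.47. The shares of all tested genes were 17.6% and 17.2%. The Erap1 value of −0.16 ± 0.06 was not called without sh-Gls2 mouse 45 (−0.13, edgeR adjusted p = 0.0577). H2-D1, a class I heavy chain gene, was at 298, 401 and 449 CPM in sh-Gls2 and 196, 249 and 292 CPM in control (0.65 ± 0.08, edgeR adjusted p = 4.21e-09), without overlap, although class I genes share sequence and reads. Psmb8, a subunit of the immunoproteasome that immune signals induce, was at 19.8, 29.9 and 36.9 CPM in sh-Gls2 and 11.9, 15.1 and 22.1 CPM in control (0.93 ± 0.12). Tapbp, which loads peptides, rose by 0.50 ± 0.07, and the activator subunit gene Psme1 by 0.44 ± 0.06. With sh-Glud1, H2-D1 and Psmb8 stood at 0.33 ± 0.08 and 0.45 ± 0.13 relative to control, and Tapbp at −0.01 ± 0.07.

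NRF2 is a transcription factor that oxidants and electrophiles activate, and it binds promoter sites called AREs. Of 31 targets 20 were higher (64.5%, against 17.6% of all tested genes) and none lower, with a median of 0.41. In 7 of the targets every sh-Gls2 library was above every control library, against 2.88% of all tested genes. Gsta1, a glutathione transferase gene, was at 102, 139.9 and 191 CPM in sh-Gls2 and 3.90, 14.1 and 20.5 CPM in control (3.37 ± 0.36, edgeR adjusted p = 9e-11). Gsta2, its close relative with which it may share reads, was at 101, 149 and 175 CPM in sh-Gls2 and 21.8, 42.5 and 77.8 CPM in control (1.68 ± 0.23). Gsr, glutathione reductase, was at 89.7, 117 and 133 CPM in sh-Gls2 and 59.9, 67.003 and 73.5 CPM in control (0.81 ± 0.08), and Txn1, thioredoxin, rose by 0.55 ± 0.06. None of these 4 genes overlapped between groups. Nqo1, a quinone reductase often used as a readout of NRF2, was at 6.65, 8.85 and 11.99 CPM in sh-Gls2 and 2.13, 4.41 and 10.03 CPM in control, with overlapping ranges (0.83 ± 0.23, edgeR adjusted p = 0.00424).

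An ARE was searched for as TGACNNNGC on both strands, shown in capitals in the windows of 2 targets and of 2 core proteasome genes.
Prdx1 (chr4:116685440-116685499, plus strand): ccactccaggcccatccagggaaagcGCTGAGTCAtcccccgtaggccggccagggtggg
Srxn1 (chr2:152105514-152105573, plus strand): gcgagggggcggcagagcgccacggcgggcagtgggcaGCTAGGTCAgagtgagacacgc
Psmb5 (chr14:54618009-54618068, minus strand): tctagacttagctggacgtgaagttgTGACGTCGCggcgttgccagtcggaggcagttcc
Psmb6 (chr11:70525322-70525381, plus strand): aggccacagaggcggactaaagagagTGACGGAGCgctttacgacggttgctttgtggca
The motif was in 10 of 26 NRF2 targets with a promoter and in 5 of 26 proteasome subunits (19.2%), against 16.9% of all tested genes, so the proteasome share was near the background. Prdx1, a peroxiredoxin, was at 796, 855 and 954 CPM in sh-Gls2 and 644, 695 and 739 CPM in control (0.32 ± 0.05), without overlap. Srxn1, which repairs oxidised peroxiredoxins, was at 0.84 ± 0.17 (edgeR adjusted p = 9.13e-05), and Psmb6 at 0.63 ± 0.05.

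Enzymes that conjugate and oxidise foreign compounds were counted as 2 lists. Of 21 glutathione transferases 9 were higher (42.9%, against 17.6% of all tested genes), with a median of 0.27. Gstz1 was the 1 lower gene (−0.24 ± 0.06), a share of 4.76% against 17.2%. Gsta1 and Gsta2 are in this list and in that of NRF2 targets. Gstm3 was at 185, 296 and 541 CPM in sh-Gls2 and 40.9, 69.2 and 113 CPM in control (2.12 ± 0.32), and Gstm4 rose by 1.10 ± 0.20. Of 39 enzymes and receptors of drug metabolism 9 were higher (23.1%, near the 17.6% of all tested genes) and 3 lower, and 16 were higher in a fit of the 20 libraries alone. Cyp3a11, the main CYP3A enzyme of mouse liver, was at 5492, 7053 and 8451 CPM in sh-Gls2 and 2174, 3888 and 4501 CPM in control, a 1.998-fold level (edgeR adjusted p = 1.56e-09). Its groups did not overlap. Cyp2a5, which oxidises coumarin, was at 719, 1105 and 1429.9 CPM in sh-Gls2 and 178, 519 and 832 CPM in control (1.16 ± 0.25), and Aldh1a7, an aldehyde dehydrogenase gene, rose by 0.58 ± 0.12. The 3 lower ones were Cyp2j5 (−0.52 ± 0.13), Ugt2b1 (−0.59 ± 0.18) and Ces1d (−0.58 ± 0.16).

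**Figure D4:**
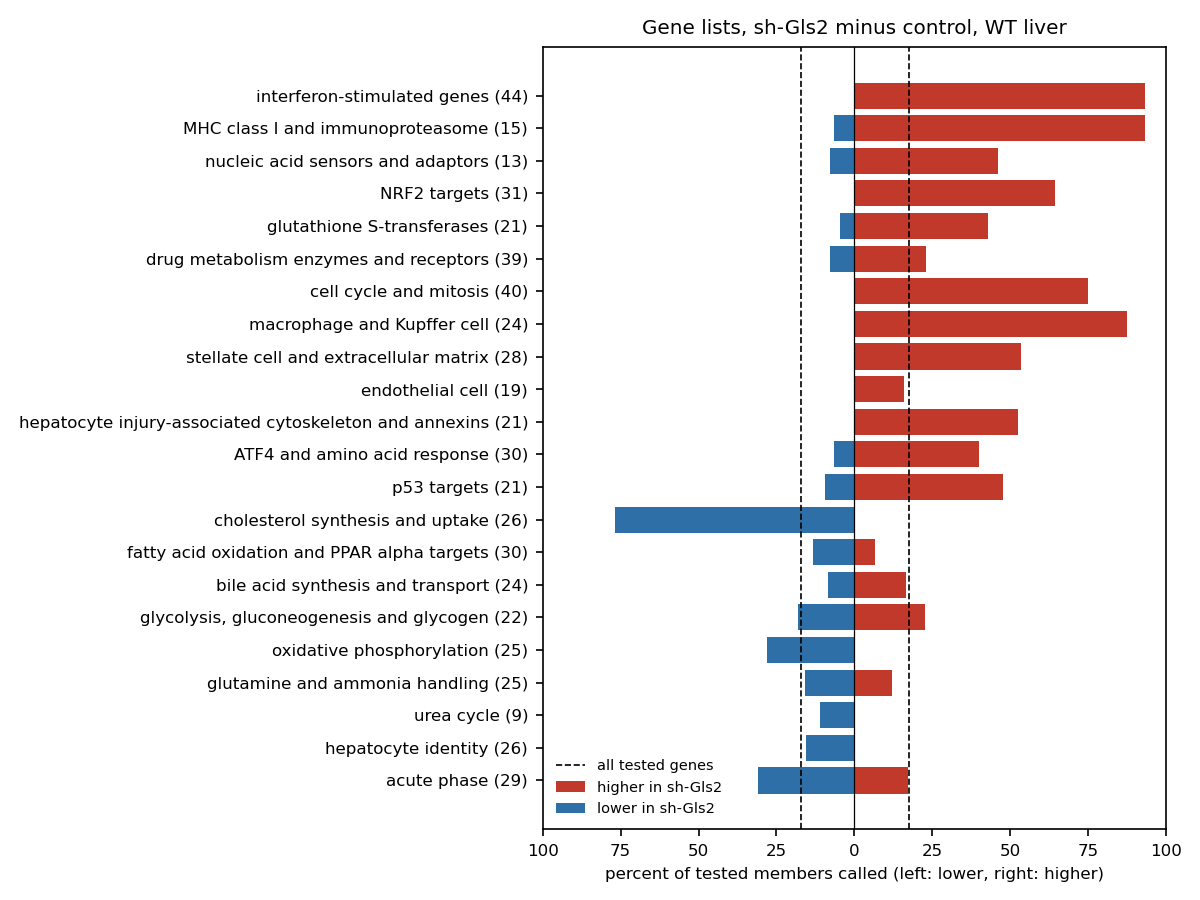
Percent of the tested members of 22 gene lists (number tested in brackets) called higher (red, right) or lower (blue, left) in sh-Gls2 minus control, with dashed lines at the shares of all tested genes, 17.6% and 17.2%. Interferon-stimulated genes reach 93.2% higher, and cholesterol genes 76.9% lower.

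Cholesterol synthesis was the one metabolic list of which most members fell. Of 26 genes of synthesis and uptake 20 were lower (76.9%, against 17.2% of all tested genes) and none higher, with a median of −0.60. Srebf2, the transcription factor that drives the pathway, was at 29.99, 43.6 and 47.4 CPM in sh-Gls2 and 44.8, 57.6 and 65.6 CPM in control (−0.41 ± 0.07, edgeR adjusted p = 1.89e-05). Ebp, a sterol isomerase gene, was at 135, 155 and 176 CPM in sh-Gls2 and 172, 208 and 249 CPM in control (−0.42 ± 0.07), with 7 of 10 sh-Gls2 libraries below the lowest control. Tm7sf2, a sterol reductase gene, fell by 0.71 ± 0.14, and Scap, the escort of SREBP, by 0.37 ± 0.08. Hmgcs1, the entry enzyme, had the lowest value of the list, at 54.8, 142 and 329 CPM in sh-Gls2 and 142, 327 and 740.2 CPM in control (−1.14 ± 0.30, edgeR adjusted p = 0.00221). Ranges overlapped in all 26 genes. Of 22 genes that build fatty acids and triglycerides, 1 was higher (4.55%) and 2 lower (9.09%), below the 17.6% and 17.2% of all tested genes. Mttp, which loads fat onto lipoproteins, was at 0.17 ± 0.05 and Srebf1, the transcription factor gene of the pathway, at −0.55 ± 0.19. The Srebf1 call was lost without control mouse 11 (edgeR adjusted p = 0.0529).

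In oxidation of fatty acids 2 of 30 genes were higher (6.67%) and 4 lower (13.3%), below the 17.6% and 17.2% of all tested genes. Acaa2, the last enzyme of the mitochondrial cycle, was at −0.30 ± 0.05. Cd36, a fatty acid importer, was at 105, 172 and 318 CPM in sh-Gls2 and 14.8, 56.8 and 263 CPM in control (1.27 ± 0.37, edgeR adjusted p = 0.00531). Cyp4a14, a fatty acid hydroxylase gene, was at −1.84 ± 0.62, and its call was lost without control mouse 13 (−1.33, edgeR adjusted p = 0.081). Of 24 bile acid genes 4 exporters were higher (16.7%, near the background): the phospholipid floppase Abcb4 (0.61 ± 0.10), Abcc3 (0.43 ± 0.11), Abcc4 (1.84 ± 0.34) and Slc51b (1.03 ± 0.36). Baat, which conjugates bile acids, and Slc10a1, which takes them up, were lower (−0.31 ± 0.07 and −0.36 ± 0.11). Of 22 glycolysis and glycogen genes 5 were higher (22.7%) and 4 lower (18.2%), also near the background. Gpi1, glucose phosphate isomerase, was at 147, 159 and 181 CPM in sh-Gls2 and 89.7, 98.5 and 111 CPM in control (0.68 ± 0.06). Aldoa, the muscle-type aldolase, was at 80.2, 90.8 and 109.5 CPM in sh-Gls2 and 44.1, 54.97 and 59.1 CPM in control (0.77 ± 0.08). Neither of these 2 genes overlapped between groups, whereas Pfkl, liver phosphofructokinase, and Ldha, lactate dehydrogenase, were lower (−0.44 ± 0.07 and −0.43 ± 0.08).

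Stress pathways rose in part. Of 30 ATF4 and amino acid response genes 12 were higher (40%) and 2 lower (6.67%), with a median of 0.20. The shares of all tested genes were 17.6% and 17.2%. Atf3 was at 1.93, 3.03 and 4.25 CPM in sh-Gls2 and 0.467, 0.622 and 1.12 CPM in control (2.15 ± 0.21, edgeR adjusted p = 7.92e-12), without overlap. The stress hormone gene Gdf15 was at 12.8, 23.1 and 37.7 CPM in sh-Gls2 and 2.44, 4.66 and 12.4 CPM in control (1.97 ± 0.34), also without overlap. The amino acid importer genes Slc7a1 and Slc7a5 rose by 0.83 ± 0.15 and 1.04 ± 0.20, while Atf5 and Vldlr were the lower ones (−0.45 ± 0.12 and −1.77 ± 0.46). Without control mouse 13, Vldlr was at −1.07. Of 21 p53 targets 10 were higher (47.6%, against 17.6%) and 2 lower (9.52%, against 17.2%), with a median of 0.37. Btg2, which restrains division, was at 0.84 ± 0.21. The lower genes were Ei24 (−0.35 ± 0.07) and Perp (−0.33 ± 0.09). The Perp call was lost with limma on log2(TPM + 1) (adjusted p = 0.0518). Of 20 chaperone genes of the endoplasmic reticulum 1 was higher (5%) and 3 lower (15%), below the 17.6% and 17.2% of all tested genes.

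Genes of cell division were higher in sh-Gls2 livers, from low levels. Of 40 tested genes 30 were higher (75%, against 17.6% of all tested genes) and none lower, with a median of 1.38. Mki67, present in dividing cells, was at 3.58, 7.68 and 25.3 CPM in sh-Gls2 and 0.613, 2.04 and 2.69 CPM in control (2.38 ± 0.33, edgeR adjusted p = 1.03e-07), with no overlap. Cenpe, a kinetochore motor gene, was at 0.471, 1.45 and 4.10 CPM in sh-Gls2 and 0.189, 0.277 and 0.504 CPM in control (2.36 ± 0.33). Hmmr, of the mitotic spindle, and Mcm6, a subunit of the replicative helicase, rose by 1.95 ± 0.28 and 1.35 ± 0.20. On TPM, where 16 genes of the list passed the minimum of 1, 9 were called higher.

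Markers of macrophages moved the same way. Of 24 macrophage and Kupffer cell genes 21 were higher (87.5%, against 17.6% of all tested genes) and none lower, with a median of 0.74. Timd4, Marco and Itgam were not called. Cd68 was at 7.44, 9.45 and 11.5 CPM in sh-Gls2 and 3.67, 4.72 and 6.39 CPM in control (1.01 ± 0.12, edgeR adjusted p = 3.67e-09), without overlap. Cd14, a receptor for bacterial lipopolysaccharide, rose by 1.85 ± 0.27, the protease gene Ctss by 0.87 ± 0.14 and the complement gene C1qa by 0.69 ± 0.12. The summed level of 8 defining macrophage markers was 141, 201 and 225 CPM in sh-Gls2 and 102, 123 and 162 CPM in control, with 6 of the 8 higher. In bulk tissue more cells of a type and more RNA per cell cannot be told apart. Macrophages also express several of the interferon and MHC genes above, and the part of macrophages in those changes was not tested.

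Stellate cell and matrix genes were higher in 15 of 28 (53.6%, against 17.6% of all tested genes), with none lower and a median of 0.37. Tgfbi, a matrix protein gene, was at 24.5, 37.04 and 41.7 CPM in sh-Gls2 and 16.5, 21.7 and 26.5 CPM in control (0.61 ± 0.10), and Postn, Reln and Dcn rose by 0.83 ± 0.15, 0.53 ± 0.11 and 0.42 ± 0.10. The sum of 5 defining stellate markers was 198, 288 and 336 CPM in sh-Gls2 and 182, 202 and 231 CPM in control. Of 19 endothelial genes 3 were higher and none lower, a share of 15.8%, near the 17.6% of all tested genes. The 6 endothelial markers summed to 172, 198.5 and 221 CPM in sh-Gls2 and 140, 174 and 224 CPM in control. Of 10 tested T and NK cell genes 2 were higher (20%, near the same background), and of 5 B cell and 4 neutrophil genes none was called in edgeR. Counts of 3 or fewer in the endothelial, lymphocyte and bile duct lists changed by 1 or more genes when single libraries were left out. The summed T and NK cell markers lay between 1.46 and 4.41 CPM in sh-Gls2 and between 1.07 and 4.70 CPM in control. Of 9 tested bile duct genes 2 were higher (22.2%, near the same background), and 4 markers summed to 5.84 to 14.7 CPM in sh-Gls2 and 4.87 to 21.3 CPM in control.

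Genes described with hepatocyte injury or a less mature state were counted as well. In bulk tissue the cells behind their changes cannot be told apart. Of 21 tested cytoskeletal and annexin genes that accompany hepatocyte injury, 11 were higher (52.4%, against 17.6% of all tested genes) and none lower (median 0.55). Anxa5, a phospholipid-binding annexin, was at 89.2, 103 and 128 CPM in sh-Gls2 and 42.6, 58.8 and 76.8 CPM in control (0.81 ± 0.09), without overlap, and Lgals3 and S100a11 rose by 1.02 ± 0.19 and 0.96 ± 0.19. Of 13 tested fetal and imprinted genes 4 were higher (30.8%, against 17.6% of all tested genes) and none lower. Afp, the fetal relative of albumin, was at 0.528, 1.18 and 2.49 CPM in sh-Gls2 and 0.376, 0.442 and 0.852 CPM in control (1.30 ± 0.28, edgeR adjusted p = 0.000292).

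Of 26 genes of hepatocyte identity 4 were lower (15.4%) and none higher, the lower share being near the 17.2% of all tested genes. Among the 4 were the transcription factor gene Foxa2 at 13.4, 16.5 and 28.3 CPM in sh-Gls2 and 17.1, 30.1 and 50.5 CPM in control (−0.80 ± 0.16) and the asialoglycoprotein receptor gene Asgr1 (−0.20 ± 0.05). Of 8 genes that break down histidine and proline 4 were lower (50%, against 17.2% of all tested genes) and none higher. They were led by Amdhd1 at 115, 136 and 171 CPM in sh-Gls2 and 144, 219.8 and 252 CPM in control (−0.62 ± 0.10) and Ftcd (−0.33 ± 0.07). Cbs, which starts transsulfuration, was at 368, 424 and 451 CPM in sh-Gls2 and 468, 572 and 639 CPM in control (−0.43 ± 0.07), without overlap, and Haao, of tryptophan breakdown, fell by 0.42 ± 0.08. Of 25 oxidative phosphorylation genes 7 were lower (28%, against 17.2% of all tested genes) and none higher. The changes were small, such as Sdha at −0.22 ± 0.04. In iron handling, Tfr2, a sensor of transferrin, was at 238, 249 and 279 CPM in sh-Gls2 and 291, 348 and 373 CPM in control (−0.43 ± 0.05), without overlap, and the ferritin genes Fth1 and Ftl1 rose by 0.33 ± 0.06 and 0.34 ± 0.09. Hmox1, which degrades heme, rose by 0.67 ± 0.13.

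Acute phase proteins are secreted by hepatocytes in inflammation. Of 29 genes 5 were higher (17.2%, near the 17.6% of all tested genes) and 9 lower (31%, against 17.2%), with a median of −0.245. Orm2, an orosomucoid gene, was at 55.6, 106 and 184 CPM in sh-Gls2 and 9.43, 19.6 and 73.8 CPM in control (2.20 ± 0.34), in a family that shares reads, and Orm3 rose by 2.44 ± 0.48. The counts moved with single control mice: without mouse 7, 8 genes were higher and 3 lower, and without mouse 41 or mouse 20, 3 were higher. Of 26 complement and coagulation genes 4 were higher (15.4%) and 6 lower (23.1%), near the shares of all tested genes. C2, a complement protease, and Mbl2, a mannose-binding lectin, were at 0.49 ± 0.09 and 0.50 ± 0.13, and F11, coagulation factor XI, at −0.36 ± 0.12.

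The comparison with sh-Glud1 sets this hairpin against a hairpin with another target. Control mice also received a hairpin vector, and sh-Glud1 had its own target lowered, with a median Glud1 of 374 CPM against 1020 CPM in control. The eGFP row differed too, with a median of 11.9 CPM in sh-Gls2 and 31.7 CPM in sh-Glud1. The contrast therefore cannot tell the effects of the 2 hairpins apart. Between sh-Gls2 and sh-Glud1 livers 3946 genes (29.6%) were called, 2062 higher (15.5%) and 1884 lower (14.2%) in sh-Gls2. Of the interferon-stimulated genes 35 were higher in sh-Gls2 than in sh-Glud1, of the NRF2 targets 20, of the macrophage genes 19, and of the cell division genes 25. Of the cholesterol genes 16 were lower in sh-Gls2. Not all lists held. Of 21 p53 targets 3 were higher and 2 lower than in sh-Glud1, against 10 and 2 relative to control. Of 22 glycolysis and glycogen genes 2 were higher and 6 lower, against 5 and 4, and no T and NK cell gene was higher, against 2. All 14 core proteasome genes were higher in sh-Gls2, with Psmb4 at 0.79 ± 0.05 (edgeR adjusted p = 1.1e-18). Both contrasts use the same sh-Gls2 libraries, so they are not independent of each other. For some genes the sh-Glud1 value leaned the same way without being called: Psmb8 was at 0.45 ± 0.13 and Mcm6 at 0.74 ± 0.21 in sh-Glud1 minus control. In sh-Gls2 minus sh-Glud1 they were at 0.48 ± 0.13 (edgeR adjusted p = 0.00283) and 0.61 ± 0.20 (edgeR adjusted p = 0.0165).

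In OTC mice, whose groups share no library with WT, sh-Gls2 minus control gave log2 fold changes of −1.15 ± 0.10 for Gls2, 0.68 ± 0.05 for Psmb4, −1.36 ± 0.08 for Shfm1, −1.22 ± 0.09 for Cryz, 1.01 ± 0.20 for Irf7 and 3.71 ± 0.40 for Gsta1. The difference between strains in the effect of sh-Gls2 was called for 45 of 13311 genes (0.338%) in edgeR, with 1496 at an unadjusted p below 0.05. The actin regulator gene Pfn2 rose more in WT, by 3.17 ± 0.17 against 1.85 ± 0.17 in OTC (difference 1.32 ± 0.23, edgeR adjusted p = 0.00379). Cib3 likewise was at 5.29 ± 0.44 in WT and 2.76 ± 0.39 in OTC (difference 2.53 ± 0.56, edgeR adjusted p = 0.0249). Gpi1 and Aldoa also rose more in WT, with differences of 0.47 ± 0.09 and 0.50 ± 0.11. Slc13a3 was at 0.94 ± 0.18 in WT and 2.38 ± 0.21 in OTC (difference −1.44 ± 0.27, edgeR adjusted p = 0.00508). The ammonia transporter gene Rhbg rose less in WT, by 1.18 ± 0.16 against 2.34 ± 0.20 in OTC (difference −1.17 ± 0.26, edgeR adjusted p = 0.0249). The differences of Cyp2c40 and Slc22a26 (−8.19 ± 1.70 and −5.56 ± 1.37) include the control mouse 13 described above. Left out in turn, single libraries moved the count of 45 to between 15 and 64.

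Within the 10 sh-Gls2 libraries, the level of Gls2 was set against 16 of the most changed genes and eGFP. None of the 17 relations passed, with a smallest adjusted p of 0.258 in permutation tests of 100000 resamples. The relation with the lowest r was that of Tff3 (Pearson's r = −0.699, permutation p = 0.018, Spearman's rho = −0.491, permutation p = 0.153), and r was −0.195 without the libraries of mice 45 and 1, which lie farthest from the median of Gls2. Leaving out these 2 libraries moved r the other way for Pls1 (−0.572, and −0.749 without them), Ttc39aos1 (−0.377 and −0.737) and Ttc39a (−0.327 and −0.689), whose adjusted p over all 10 libraries were 0.351, 0.509 and 0.509 in the permutation tests. Mouse 45 had the highest Gls2 of its group, at 255 CPM, and the lowest Irf7, Tff3 and Cib3, at 24.7, 0.706 and 10.1 CPM. The same mouse had the highest Ttc39a, Psmb5 and Gstm3 of its group, at 12.2, 96.5 and 541 CPM. Its Pls1, at 28.1 CPM, was near the group median. For eGFP r was −0.502 (permutation p = 0.143) and rho −0.612 (permutation p = 0.0673), with r = −0.405 without those 2 libraries.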

How the data were processed

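Gene counts and TPM were deposited by the authors as 2 tables with a column per library. Per the submitters' processing notes, reads were called with CASAVA 1.8.2, inspected with FastQC and set against GRCm38; the aligner, counter and strand setting are not given in the sources used here. Libraries were strand-specific and PCR-amplified, per the labels' protocols.

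The deposited counts were tested with edgeR 4.0.16 (R 4.3.3) in 1 quasi-likelihood fit of all 55 libraries with 6 group terms, TMM scaling, filterByExpr (minimum count 10, minimum total 15) and Benjamini-Hochberg adjustment, which kept 13311 of 24475 genes. The median SE was 0.10 on the log2 scale, and libraries held 14489866 to 22781052 counts. P-values set group differences against the spread between mice of a group, estimated over all 6 groups. One OTC control column matched no sample title and entered as a library of its group. Over the 90 pairs of libraries within WT sh-Gls2 or within WT control, the smallest chi-square per degree of freedom was 12. None of these pairs was therefore a duplicate, and other pairs were not checked. The script was tested on simulated data.

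Named genes were Gls2, the 15 called genes at either end of the fold changes, given a mean log2 CPM of at least 1 and no predicted name, the 5 smallest p in each direction and up to 4 called genes of each list. Gene lists and groups were chosen with earlier results of these data known. Of the named genes, those given values were picked after the values were seen, as were genes of lists that were not called. Alternatives were DESeq2 1.42.0, other filters, a fit of the 20 libraries, limma 3.58.1 on the authors' deposited TPM, and leaving out single libraries. Some results are not reported here.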

Additional observations from a re-analysis of the deposited data

Results flagged for a closer look

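In 36 of 322 sets, each the log2 CPM of 1 named gene or the total counts in the 10 libraries of a group, 1 library lay apart from the other 9 by Dixon's criterion at 95%, which chance gives in about 1 of 20 sets. Of these, 14 were in sh-Gls2 and 22 in control. In sh-Gls2, mouse 45 was the lowest by this criterion for Cdh1 at 6.97, Cib3 at 10.1, Tff3 at 0.706, Irf7 at 24.7, Ifih1 at 48.7, Psmb8 at 19.8 and C2 at 83.8 CPM, and the highest for Mavs at 91 CPM. For Cdh1 the next library was at 50.7 CPM and for Irf7 at 51.2 CPM. Mouse 79 was the lowest sh-Gls2 library for Psmf1 at 29.8, Vcp at 480, Gsr at 89.7 and Srebf2 at 30 CPM. Of the other sh-Gls2 libraries, mouse 36 was lowest for Mup17 at 0 CPM and mouse 1 was highest for Gpi1 at 181 CPM. In control, mouse 7 was the lowest for Slc38a4 at 805, Lect2 at 46.6, Cryz at 60.2, Psme1 at 45, Gstz1 at 440, Acaa2 at 512, Slc10a1 at 287, Perp at 47.2, Ftcd at 310 and Sdha at 411 CPM. It was the highest for Srxn1 at 82.8 and Marco at 13.1 CPM. Control mouse 13 was the highest for Mup11 at 22.3, Cyp2c40 at 182, Slc22a26 at 58 and Abcc4 at 8.74 CPM, and the lowest for Aldoa at 44.1 CPM. Of the remaining controls, mouse 20 was lowest for Gsta1 at 3.9 CPM, mouse 11 was highest for Lrtm2 at 0.243 CPM, mouse 28 was lowest for Elf3 at 0 CPM, mouse 2 was highest for Pomp at 87.2 CPM and mouse 41 was lowest for Stat2 at 44.4 CPM.

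The effect of sh-Gls2 differed between WT and OTC in edgeR, as a log2 difference WT minus OTC, for Rhbg (−1.17), Slc13a3 (−1.44), Cib3 (2.53), Pfn2 (1.32), Cyp2c40 (−8.19), Slc22a26 (−5.56), Gpi1 (0.474) and Aldoa (0.497). The values of Cyp2c40 and Slc22a26 include WT control mouse 13. Without it their WT fold changes were −0.03 and −0.92 (edgeR adjusted p = 0.984 and 0.421).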

How the results depend on the processing

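The count of 4638 genes called in WT sh-Gls2 minus WT control lay between 3951 and 4722 in the alternatives over all libraries and between 4258 and 4818 with single libraries left out, and 3530 to 4625 of its genes were shared in the same direction. The direction of Gls2 held in all of them, with leave-one-out values of −1.15 to −1.06. Higher calls lay between 2148 and 2440 and lower calls between 2076 and 2378 with single libraries left out. Without a filter 2250 were higher and 2323 lower, and with at least 1 CPM in at least 8 libraries 2231 and 2261. In the fit of the 20 libraries they were 2317 and 2405, so the small excess of higher calls turned in these settings. The contrast with sh-Glud1 gave 3641 to 4027 calls with single libraries left out. The difference between strains, 45 genes, gave 24 without a filter, 84 with the DESeq2 Wald test and 15 to 64 with single libraries left out; 15 was without OTC control mouse 35 and 64 without OTC control mouse 72, and the cause was not tested. Of the 148 named genes that were called, 134 to 148 stayed called in the same direction. Between 9 and 14 lists had most members called in 1 direction, against 12. Cyp2c40 was at 0.0026 with DESeq2 (adjusted p = 0.998) and at 0.18 without control mice 7 and 13. With limma on TPM, cell division genes gave 9 higher of the 16 that passed the minimum, against 30 of 40, and the cause was not tested. No paired analysis was possible because the groups share no replicate numbers. Genes near 0 CPM rest on few reads per library, which limits their fold changes.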
